A study of Mus musculus with 8 samples.

Results

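Transcripts of 10 genes of interleukin-6 (IL-6) family signaling were examined in AML12 mouse hepatocytes cultured with or without irisin. The genes were the receptor chains Il6ra, Il6st (gp130), Lifr and Osmr, the kinases Jak1, Jak2 and Tyk2, the transcription factor Stat3, and the inhibitors Socs1 and Socs3. All probes whose transcript accession mapped to these genes were taken, which gave 13 of the 39429 probes on the array for 10 of the 21612 genes named on it. Lifr had 3 probes, Stat3 had 2 probes and every other gene had 1 probe.

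AML12 is a hepatocyte line established from the liver of a mouse that carried a TGF-α transgene, and irisin is the peptide released from the membrane protein Fndc5. The control group held 4 samples cultured for 24 h without irisin, and the irisin group held 4 samples cultured for 24 h with 0.5 µg/ml irisin. Both groups received the same medium with 10% fetal bovine serum. Total RNA of each sample was labeled with Cy3 and hybridized to an array of its own. The labels do not say whether the samples of a group came from separate cultures, so the p-values measure the spread between these samples, which may be technical.

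Most cytokines of the IL-6 family bind a receptor chain of their own and recruit the shared chain gp130, to which JAK kinases are attached. The kinases phosphorylate gp130 and STAT3, STAT3 moves to the nucleus, and among the genes it turns on is Socs3, whose product blocks the receptor and its kinases. In hepatocytes this pathway is known for the acute phase response, in which the liver secretes proteins such as haptoglobin, fibrinogen and serum amyloid A. STAT proteins bind DNA at short palindromes of the form TTCNNNGAA.

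The genes of both feedback inhibitors are known to be turned on by STAT proteins, and the bases before their starts are shown for that reason. The sequences were taken from RefSeq on GRCm38.p6. Each holds the 250 bases before the start of its gene, which lies on the minus strand, and capitals mark a match to TTCNNNGAA, which reads the same on both strands.
Socs3, chr11:117969367-117969616: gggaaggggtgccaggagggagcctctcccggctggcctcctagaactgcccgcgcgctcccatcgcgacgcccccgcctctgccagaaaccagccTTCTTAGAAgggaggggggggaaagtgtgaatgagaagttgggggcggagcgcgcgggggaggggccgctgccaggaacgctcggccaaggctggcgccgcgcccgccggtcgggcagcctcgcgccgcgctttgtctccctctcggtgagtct
Socs1, chr16:10785537-10785786: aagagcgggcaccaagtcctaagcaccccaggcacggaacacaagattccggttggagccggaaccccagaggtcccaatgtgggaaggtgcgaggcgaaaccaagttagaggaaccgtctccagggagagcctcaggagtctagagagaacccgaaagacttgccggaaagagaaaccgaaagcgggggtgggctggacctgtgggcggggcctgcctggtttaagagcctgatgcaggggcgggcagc
The Socs3 sequence held 1 match, TTCTTAGAA, which began 154 bases before the start, and the Socs1 sequence held none. The window searched ran from 250 bases before to 50 bases after each start and gave 11 promoters for the 10 genes, because Lifr has 2. Only the Socs3 promoter among these 11 held a match, against 8.30% of 32851 mouse promoters of the same length. A match describes the letters of a window and is not evidence that a factor binds there.

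The arrays gave usable signal for every one of these genes. All 13 probes were well above background on all 8 arrays. The 75th percentile of the processed signal ran from 371.7 to 534 on the control arrays and from 682 to 850 on the irisin arrays, and its log2 was 0.74 higher on the irisin arrays (p = 0.0286 by an exact permutation test, two-sided, which can give no lower p with 4 arrays in each group). The control arrays lay on 1 slide and the irisin arrays on another, each slide with 1 scan, so the slide with its scan and the irisin treatment cannot be told apart. Of the hepatocyte markers 11 of 11 were well above background on all 8 arrays, among them Alb and Hnf4a. The same held for 4 of 5 cholangiocyte markers, for 3 of 8 markers of Kupffer cells and leukocytes, for 4 of 7 markers of stellate cells and fibroblasts and for 2 of 6 endothelial markers. The leukocyte marker Ptprc and the Kupffer cell markers Adgre1 and Clec4f were not. With 4 arrays in each group, their number limits how precise every value below is.

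Expression of the receptor, kinase, Stat3 and Socs genes did not pass the thresholds in either direction after 24 h of irisin. Values are log2 signals above or below the array's 75th percentile, and changes are irisin minus control on that scale. A probe was called when limma gave a change of at least 1.5-fold with a Benjamini-Hochberg adjusted p under 0.05. Of the 13 probes 0 were called, while 12.4% of the 24092 tested probes were called, 0.714% higher and 11.7% lower. Calls were most frequent among dim probes. In the dimmest of 10 deciles of mean signal 1088 of 2410 probes were called lower and 21 higher. In the fifth decile 91 of 2409 were called lower and 34 higher, and in the ninth 5 and 1. Most of the 13 probes lay in the fifth to the ninth decile, so 12.4% is not the share at their own signal. The test named in the study's methods, run probe by probe with the same thresholds, also called 0 of the 13 and called 11.2% of all tested probes. An unadjusted p under 0.05 in limma was reached by 1 of the 13 probes, the dimmer Stat3 probe, and by 34.3% of all tested probes. The control and irisin arrays overlapped for all 13 probes, since 0 of 13 had separate groups, against 27.2% of all tested probes.

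The changes of the 13 probes ran from -0.58 to 0.14. Their median was 0.00055, beside -0.080 for all tested probes, with 7 above 0 and 6 below. A probe that misses the threshold may still have changed, so the 95% interval of each change was compared with the 1.5-fold limits. The whole interval lay within 1.5-fold in both directions for 11 of the 13 probes, and for 69.8% of all tested probes. The exceptions were Tyk2 and the dimmer Stat3 probe. The plot of changes with their intervals shows this for each probe. In RNA of whole cultures, fewer cells of a type and less RNA per cell cannot be told apart.

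**Figure D1:**
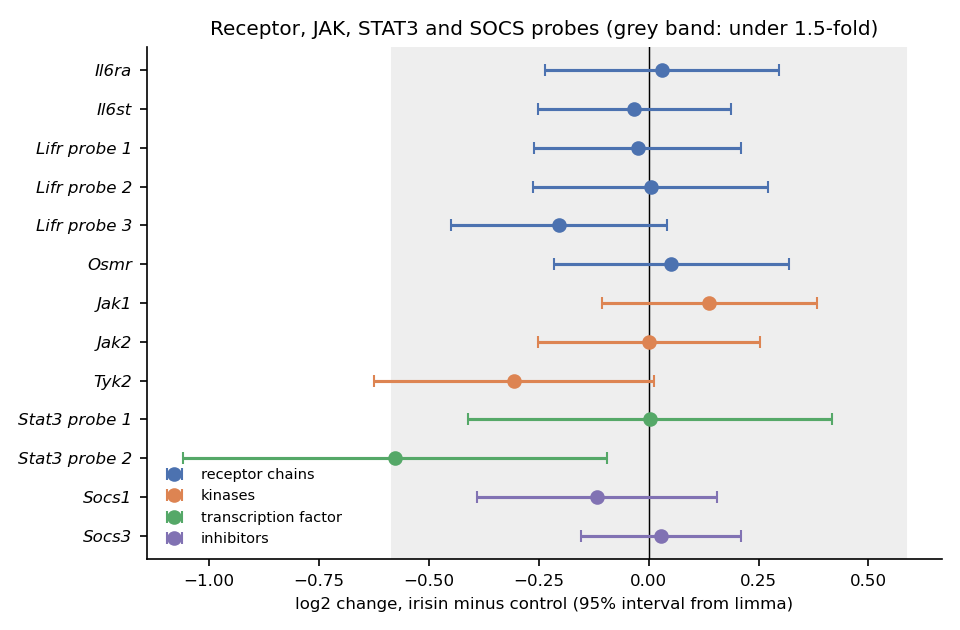
Log2 change (irisin minus control, 4 arrays a group) of each of the 13 probes on the horizontal axis, with bars for the 95% interval from limma and a grey band for changes under 1.5-fold. For 11 probes the whole bar lies inside the band, and the bars of Tyk2 and of Stat3 probe 2 reach below it.

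Among the receptor chains, none of the 6 probes was called, and their changes ran from -0.20 to 0.051. Il6ra encodes the chain that binds IL-6 itself. On probe A_55_P2068892 its log2 signals were -0.26, -0.34, -0.58 and -0.46 on control arrays 1 to 4 and -0.30, -0.15, -0.66 and -0.40 on irisin arrays 1 to 4. The irisin arrays held both the highest and the lowest value and enclosed the whole control range. The means were -0.41 ± 0.141 (SD, n = 4) and -0.38 ± 0.217 (SD, n = 4), a ratio of 1.02-fold with a 95% interval of 0.849 to 1.23 and an adjusted p of 0.895 in limma.

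Il6st encodes gp130, the signal-transducing chain that most receptors of the family share. Its signals on probe A_51_P473888 were 1.26, 1.22, 1.32 and 1.16 on the control arrays and 1.43, 1.19, 1.01 and 1.19 on the irisin arrays. Irisin replicate 1 was the highest and irisin replicate 3 the lowest of all 8 arrays, and the other two irisin arrays lay among the controls. The ratio was 0.978-fold, with a 95% interval of 0.840 to 1.14 (limma, adjusted p = 0.862).

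Lifr encodes the receptor chain for leukemia inhibitory factor, which pairs with gp130, and its 3 probes stand for transcripts of the same gene. The brightest, A_55_P2159259, ran from -1.66 to -1.47 on the control arrays and from -1.85 to -1.41 on the irisin arrays, with a change of -0.026 and an interval of -0.26 to 0.21. The second, A_55_P2159264, is listed under another Lifr transcript and ran from -3.13 to -2.76 in control and from -3.21 to -2.76 in irisin, with a change of 0.0041 and an interval of -0.26 to 0.27. The irisin range covered the control range on the first probe and overlapped nearly all of it on the second.

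The dimmest Lifr probe, A_51_P113182, read -4.68, -4.54, -4.24 and -4.41 on the control arrays and -4.63, -4.79, -4.52 and -4.75 on the irisin arrays. Irisin replicates 2 and 4 lay below every control array, and irisin replicates 1 and 3 lay within the control range. The change was -0.20 with an interval of -0.45 to 0.041 (limma, adjusted p = 0.229). With the background of normexp taken from negative control spots it was -0.53 (limma, adjusted p = 9.7e-05), under 1.5-fold. The difference between 2 Lifr probes within an array does not depend on how arrays are scaled to each other by 1 factor each. Its change ran from -0.030 to 0.21 over the 3 pairs, and none passed an exact two-sided permutation test (adjusted p from 0.381 to 0.914 over 4 such comparisons).

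Osmr encodes the receptor chain for oncostatin M, a strong inducer of acute phase genes. Probe A_51_P319460 read 0.11, -0.050, 0.22 and 0.17 on the control arrays and 0.31, -0.18, 0.24 and 0.27 on the irisin arrays. Irisin replicates 1, 3 and 4 were above every control array and irisin replicate 2 was below every one. The ratio was 1.04-fold with a 95% interval of 0.861 to 1.25 (limma, adjusted p = 0.818). Without irisin replicate 2 the log2 change was 0.17 in place of 0.051, and it was not called.

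**Figure D2:**
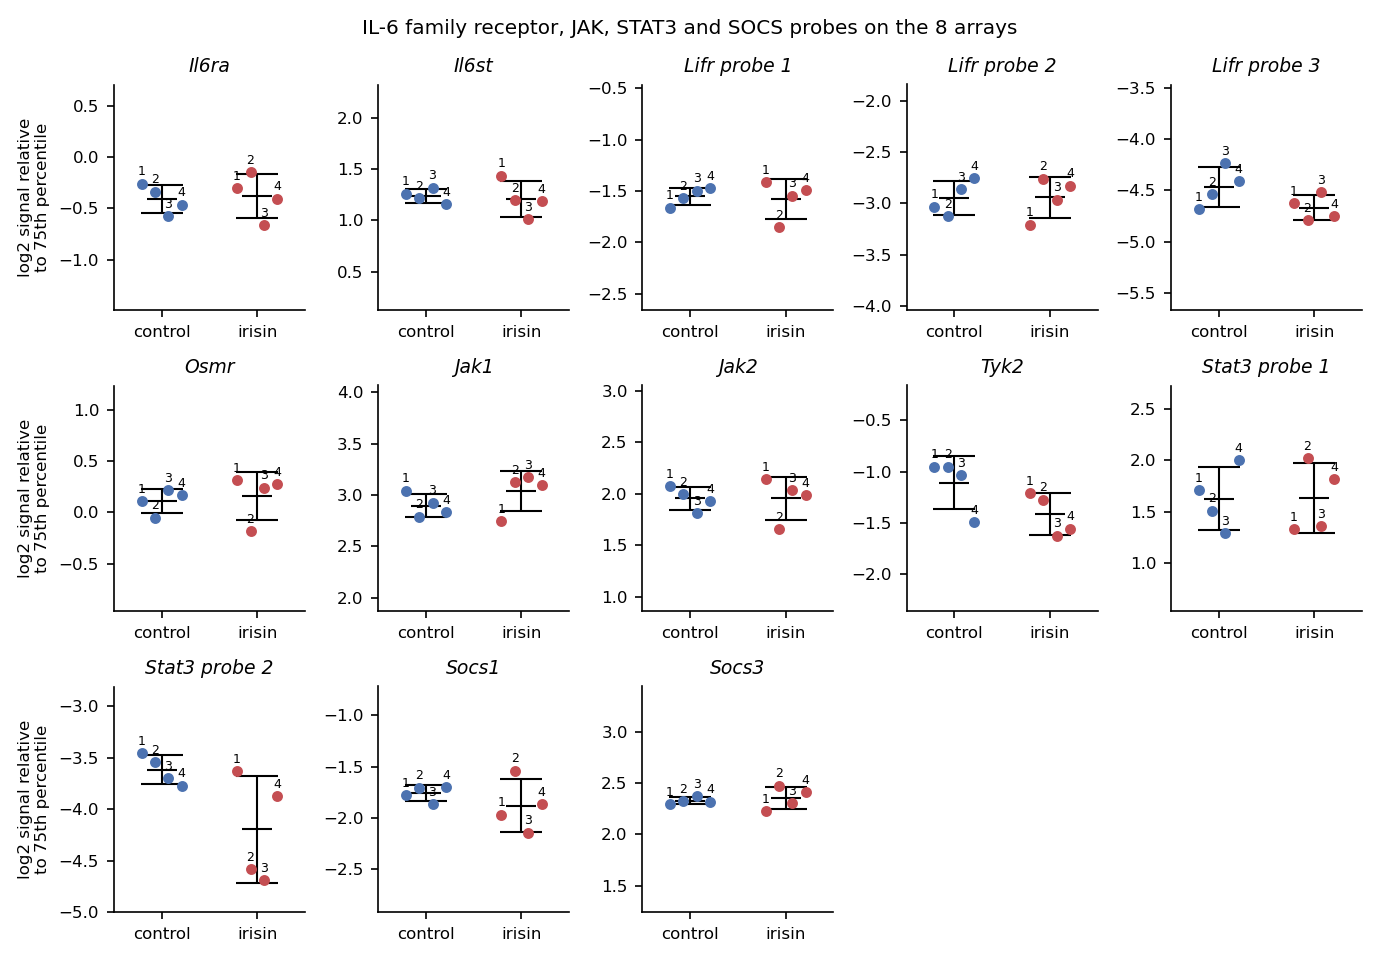
Log2 signal for each of the 13 probes, with 0 at the array's 75th percentile, with 1 point per array numbered by replicate, and the mean and SD of the 4 arrays of each group. Every panel spans the same height in log2 units around its own mean, and the control and irisin points overlap in all 13 panels.

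None of the 3 JAK kinases was called, and they spanned the changes from -0.31 to 0.14. Jak1 encodes the kinase that carries most of the gp130 signal. Its signals on probe A_52_P106463 were 3.04, 2.79, 2.92 and 2.83 on the control arrays and 2.74, 3.12, 3.17 and 3.10 on the irisin arrays. Irisin replicates 2, 3 and 4 were above every control array, while irisin replicate 1 was the lowest of all 8. The ratio of 1.10-fold was the largest increase among the 13 probes, and its 95% interval of 0.929 to 1.30 covered 1 (limma, adjusted p = 0.432).

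Jak2 encodes a second kinase attached to gp130, which also serves growth hormone and erythropoietin receptors. Its signals on probe A_55_P1971458 were 2.08, 2.00, 1.81 and 1.93 on the control arrays and 2.14, 1.65, 2.04 and 1.99 on the irisin arrays. Apart from irisin replicates 1 and 2, which were the highest and the lowest of all 8 arrays, the irisin values lay within the control range. The change was 0.00055 with an interval of -0.25 to 0.25 (limma, adjusted p = 0.999).

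Tyk2 encodes the remaining JAK kinase attached to gp130, which also serves the type I interferon receptor. Probe A_51_P466824 read -0.95, -0.95, -1.04 and -1.49 on the control arrays and -1.21, -1.27, -1.62 and -1.56 on the irisin arrays. All 4 irisin arrays were below control replicates 1 to 3, and control replicate 4 lay among the irisin arrays. The means were -1.11 ± 0.259 (SD, n = 4) and -1.42 ± 0.204 (SD, n = 4), a ratio of 0.808-fold with a 95% interval of 0.648 to 1.01 (limma, adjusted p = 0.161). Without control replicate 4 the change was -0.44 with an adjusted p of 0.0300 in limma, which remained under 1.5-fold and was not called.

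Stat3 encodes the main STAT protein activated through gp130. Its brighter probe, A_51_P201480, is printed in 10 spots on each array. The log2 signals were 1.71, 1.51, 1.29 and 2.00 on the control arrays and 1.33, 2.02, 1.36 and 1.81 on the irisin arrays. Each group held low and high arrays, and both groups covered nearly the same range. Both means were 1.63, with an SD of 0.303 for control and 0.341 for irisin (n = 4 each), and the change of 0.0027 had an interval of -0.41 to 0.42 (limma, adjusted p = 0.995).

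This Stat3 probe varied more between arrays of a group than most probes did. Its SD within groups was 0.323, at the 91.3rd percentile of the 24092 tested probes, whose median SD was 0.150. Among its spots on 1 array the SD was only 0.0302 to 0.0670, so the spread between arrays was larger than the spread between spots. The genes outside the list whose probes followed it most closely over the 8 arrays were Fbrsl1 (Pearson r = 0.986), Rp9 (r = 0.983) and Hey1 (r = 0.973), found among 18012 probes well above background on all arrays. These correlations describe 8 arrays that share 2 slides and were not tested.

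The dimmer Stat3 probe, A_55_P1991219, is listed under another Stat3 transcript. It read -3.46, -3.54, -3.69 and -3.77 on the control arrays and -3.63, -4.58, -4.69 and -3.87 on the irisin arrays. Irisin replicates 2, 3 and 4 lay below every control array, replicates 2 and 3 by far, and irisin replicate 1 lay among the controls. The means were -3.62 ± 0.143 (SD, n = 4) and -4.19 ± 0.522 (SD, n = 4), a ratio of 0.670-fold with a 95% interval of 0.480 to 0.936. The adjusted p in limma was 0.0821, and the exact two-sided permutation test gave p = 0.0857.

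This was the lowest ratio of the 13 probes, and both 1 array and the processing moved it. Without irisin replicate 1 the change was -0.77 in place of -0.58 and was called (limma, adjusted p = 0.0142), in a setting where 10.9% of all tested probes were called lower. Cyclic loess gave a change of -0.36, and scaling to the spike-in probes gave -0.0017. With normexp on negative controls it was -0.56 (limma, adjusted p = 0.000294), under 1.5-fold. The probe lay in the third dimmest decile of the tested probes, whose median change was -0.15. The difference between both Stat3 probes within an array was 5.24 ± 0.361 (SD, n = 4) in control and 5.82 ± 0.688 (SD, n = 4) in irisin. The change of this difference was 0.58 (exact two-sided permutation test, p = 0.257, adjusted p = 0.381 over the 4 probe pairs of Stat3 and Lifr).

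Socs3 encodes the inhibitor that binds gp130 and JAK and is known as an early readout of STAT3 activity. Its signals on probe A_51_P474459 were 2.29, 2.32, 2.37 and 2.32 on the control arrays and 2.23, 2.48, 2.30 and 2.41 on the irisin arrays. The 4 controls lay close together, with irisin replicates 2 and 4 above them and irisin replicate 1 below. The means were 2.33 ± 0.0332 (SD, n = 4) and 2.35 ± 0.111 (SD, n = 4). The ratio was 1.02-fold with a 95% interval of 0.899 to 1.16, the narrowest of the 13 probes (limma, adjusted p = 0.859).

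The SD of Socs3 within groups was 0.0818, at the 8.08th percentile of all tested probes. The probes that followed it most closely over the 8 arrays were those of Galk1 (r = 0.989), Thap4 (r = 0.988) and Ndufa10 (r = 0.984). Socs1 encodes a related inhibitor that acts on JAK kinases directly and is best known for interferon signaling. Its signals on probe A_51_P279606 were -1.77, -1.70, -1.87 and -1.70 on the control arrays and -1.97, -1.54, -2.14 and -1.86 on the irisin arrays. Irisin replicate 2 was the highest and irisin replicates 1 and 3 were the lowest of all 8, so the irisin range enclosed the control range. The ratio was 0.922-fold with a 95% interval of 0.763 to 1.11 (limma, adjusted p = 0.564).

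The position of the 13 probes depended on how the arrays were scaled to each other. With quantile normalization their changes ran from -0.40 to 0.17 and with cyclic loess from -0.36 to 0.21, and 0 of 13 were called in either, beside 7.02% and 6.74% of all tested probes. With no scaling all 13 changes were above 0, from 0.16 to 0.88, and 10 were called higher, in a setting where 61.9% of all tested probes were called higher and the median change was 0.66. The probes not called there were the dimmest Lifr probe, Tyk2 and the dimmer Stat3 probe. With scaling to 8 spike-in probes the median of all tested probes was 0.50 and 32.4% of them were called higher. Among the 13 probes 4 were called there, those of Il6ra (0.61), Osmr (0.63), Jak1 (0.71) and Socs3 (0.60).

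**Figure D3:**
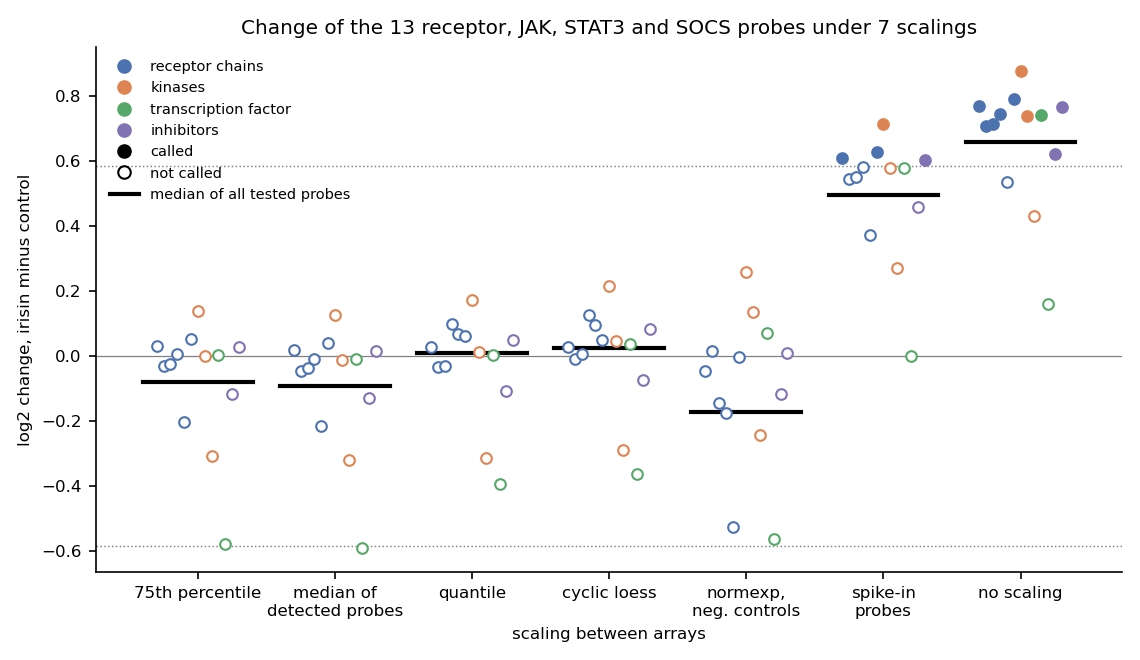
Log2 change (irisin minus control) of the 13 probes under 7 ways of scaling the arrays, with filled points for called probes, dotted lines at 1.5-fold and a black bar for the median of all tested probes. The points and the bar move up together on the right, where 4 probes are called after spike-in scaling and 10 without scaling.

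Relative to all tested probes the 13 probes were not at an extreme. Their changes lay between percentiles 12.1 and 84.6 of all tested changes, with the dimmer Stat3 probe at the lower end and Jak1 at the upper end. The median change of all probes varied with signal, at -0.51 in the dimmest decile, between -0.0077 and 0.0021 in the fifth, the sixth and the seventh decile, and -0.20 in the brightest decile. Il6ra, Il6st, Osmr, Tyk2, Socs1 and the brightest Lifr probe lay in those middle deciles. Among them, Tyk2 departed most from the median of its decile.

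**Figure D4:**
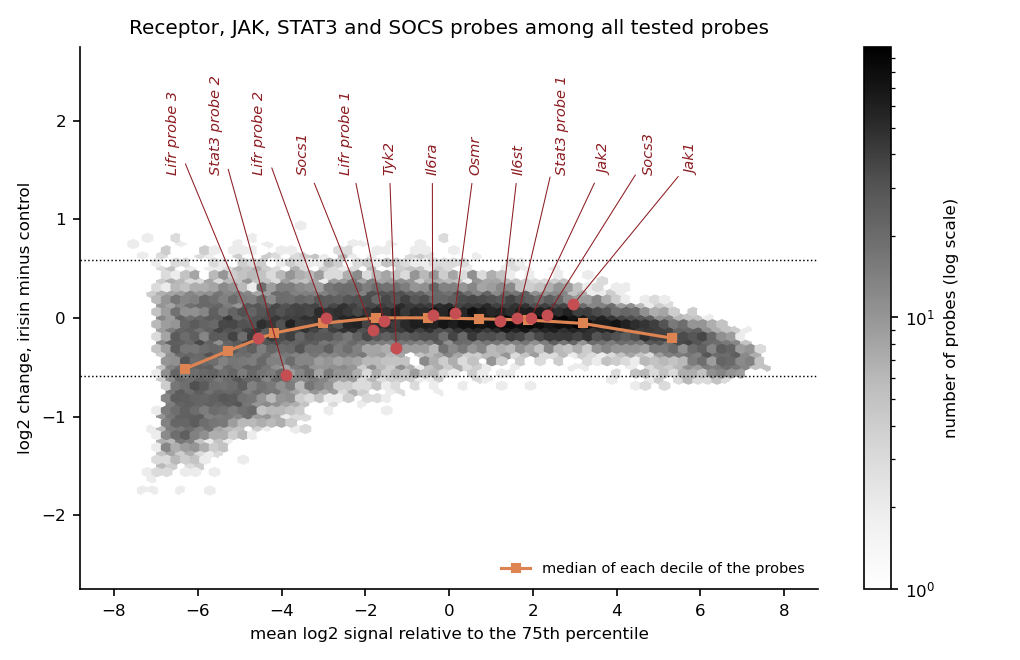
Mean log2 signal relative to the 75th percentile (horizontal axis) and log2 change, irisin minus control (vertical axis), with grey shading for the number of tested probes, named red points for the 13 probes and squares for the median of each decile of the probes. Dotted lines mark 1.5-fold, which none of the red points crosses, and the medians fall to -0.51 at the dim end.

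The other genes of the pathway were read in 6 lists, chosen with earlier results of these data known, with the brightest probe standing for each gene. Of 93 genes 80 were tested, 3 were called higher and 1 was called lower, beside 0.531% higher and 10.2% lower among the 14311 genes tested. An unadjusted p under 0.05 was reached by 27 of them, 16 in the higher and 11 in the lower direction, beside 5.94% higher and 23.6% lower among all tested genes. The 16 include Sos1 (0.53), which was well above background on 0 control and 4 irisin arrays. It passed the filter only through the group where it was higher, so its direction is not independent of the filter. The median change of the 80 genes was -0.030, and that of all tested genes was -0.064. The members of these lists that were called were Lcn2, Saa3, Myc and Lepr.

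Of the IL-6 family ligands 8 of 10 were tested and none was called, with a median change of -0.11. Il6 and Osm were each well above background on 1 control array and no irisin array and were not tested. Lif, whose product binds the Lifr chain, had a change of 0.35 ± 0.10 (SE; limma, adjusted p = 0.0290), under 1.5-fold. With normexp on negative controls Lif turned to -0.045, while quantile normalization gave 0.43. Il11 had a change of -0.032 (limma, adjusted p = 0.883).

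Of the other receptor chains 4 of 8 were tested, with a median change of -0.34, and 1 was called. Lepr encodes the leptin receptor, a relative of gp130 that also signals through JAK2 and STAT3. It read -2.40, -2.46, -2.92 and -2.61 on the control arrays and -4.17, -3.84, -4.67 and -3.62 on the irisin arrays. Every irisin array was below every control array, as for 23% of all tested probes. Lepr fell by 1.48 on the log2 scale (SE 0.21; limma, adjusted p = 0.000507). The other 3 Lepr probes were not well above background on enough arrays to be tested. With spike-in scaling the change was -0.90 and with no scaling -0.74, and Lepr was called in both.

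Some markers of other cell types were lower beside Lepr. Of the 7 stellate cell and fibroblast markers 4 were tested. Among them Col1a2 (-1.08) and Acta2 (-0.68) were called lower, while Vim (-0.40) and Col1a1 (0.0064) were not called. Of the 6 endothelial markers 2 were tested, and Pecam1 (-0.61) was called lower while Kdr (-0.56) was not. No other list of cell type markers held a call, and 10.2% of all tested genes were called lower. Acta2 and Pecam1 were not called with quantile normalization (-0.28 and -0.32) or cyclic loess (-0.25 and -0.28), and none of these markers was called lower with spike-in scaling. None of the 8 arrays measured Des, Pdgfrb, Lrat, Cdh5, Lyve1 or Tek well above background. The summed signal of a list, in multiples of the 75th percentile, was lower on every irisin array than on every control array for 4 of the 5 lists. It ran from 467 to 518 in control and from 379 to 447 in irisin for hepatocyte markers, where the lowest share of Krt18 was 33.3%. Krt18 and Trf had changes of -0.47 and -0.39, which were -0.041 and -0.019 with quantile normalization. Alb, Ttr and Hnf4a had 0.11, -0.049 and -0.097, so the sum does not stand for each marker. For Kupffer cell and leukocyte markers the sum ran from 0.734 to 0.852 in control and from 0.583 to 0.702 in irisin. It ran from 70.2 to 74.2 and from 51.4 to 58.8 for stellate cell and fibroblast markers, where the share of Vim in the sum was 99.8% on the array where it was lowest. For endothelial markers it ran from 0.703 to 0.790 and from 0.414 to 0.585, where the lowest share of Kdr was 91.5%. For cholangiocyte markers the groups overlapped, at 55.3 to 61.9 and 57.9 to 60.9. The part of other cell types in the Lepr value was not tested.

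Il11ra1, the receptor chain for IL-11, had a change of -0.16 (limma, adjusted p = 0.521), and Cntfr was not tested because only 1 control array gave it a signal well above background.

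None of the 6 tested genes of 7 among the other JAKs and STATs was called, with a median of -0.23. Stat5a, which responds to growth hormone and prolactin, had a change of -0.33 (limma, adjusted p = 0.0396), under 1.5-fold. Its close relative Stat5b had -0.25 (adjusted p = 0.113), with -0.10 on its other probe.

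Of the other SOCS genes and inhibitors 14 of 16 were tested and none was called, with a median of 0.028. Cish, a SOCS gene induced by STAT5, had a change of 0.074 (limma, adjusted p = 0.712). Socs2 had -0.072 (adjusted p = 0.590), with -0.12 and 0.20 on its other probes. Ptpn6, a phosphatase that acts on JAKs, had -0.20 (adjusted p = 0.255), and Pias3, which binds STAT3, was not tested. In the SHP2 and RAS branch all 15 genes were tested, Sos1 only through the irisin arrays, and none was called, with a median of -0.053. Ptpn11, which encodes SHP2, had -0.073 (limma, adjusted p = 0.702).

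The list of STAT3 and IL-6 target genes gave 3 calls among 34 tested genes of 38, all higher, with a median of -0.013. Among all tested genes 0.531% were called higher. The list was chosen with earlier results of these data known, so its count of calls is not a test of the list. Lcn2 encodes the secreted iron-siderophore carrier lipocalin-2. It read 0.53, 0.56, 1.15 and 0.97 on the control arrays and 1.99, 2.13, 2.11 and 2.36 on the irisin arrays, an increase of 1.35 (SE 0.15; limma, adjusted p = 0.000169). Saa3 encodes an acute phase serum amyloid A protein. It read -1.58, -1.70, -1.26 and -0.99 on the control arrays and -0.094, 0.059, -0.29 and 0.10 on the irisin arrays, an increase of 1.33 (SE 0.16; limma, adjusted p = 0.000226). Myc, a transcription factor of growth and proliferation, read 2.45, 2.38, 2.45 and 2.65 on the control arrays and 3.10, 3.10, 3.16 and 3.11 on the irisin arrays, an increase of 0.63 (SE 0.083; limma, adjusted p = 0.000362). For all 3 genes every irisin array was above every control array, as for 4.18% of all tested probes.

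In this list 14 of the 34 tested genes had an unadjusted p under 0.05 in limma, 11 of them higher and 3 lower. Among all tested genes 5.94% reached it in the higher and 23.6% in the lower direction. The limit from how the list was chosen holds for these counts as well. The other targets in it were not called. The STAT3 target genes Bcl3 and Pim1 had changes of -0.17 (limma, adjusted p = 0.282) and 0.061 (adjusted p = 0.690). Junb and Cebpd, immediate early targets of IL-6, had -0.17 (adjusted p = 0.496) and -0.063 (adjusted p = 0.721). Of the classical acute phase genes, Fgb, which encodes the fibrinogen beta chain, had 0.14 (adjusted p = 0.417) and Hp, which encodes haptoglobin, had 0.47 (adjusted p = 0.0846). Lcn2, Saa3 and Myc are also known to respond to other pathways, and the arrays give mRNA levels only, not the phosphorylation of STAT3.

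**Figure D5:**
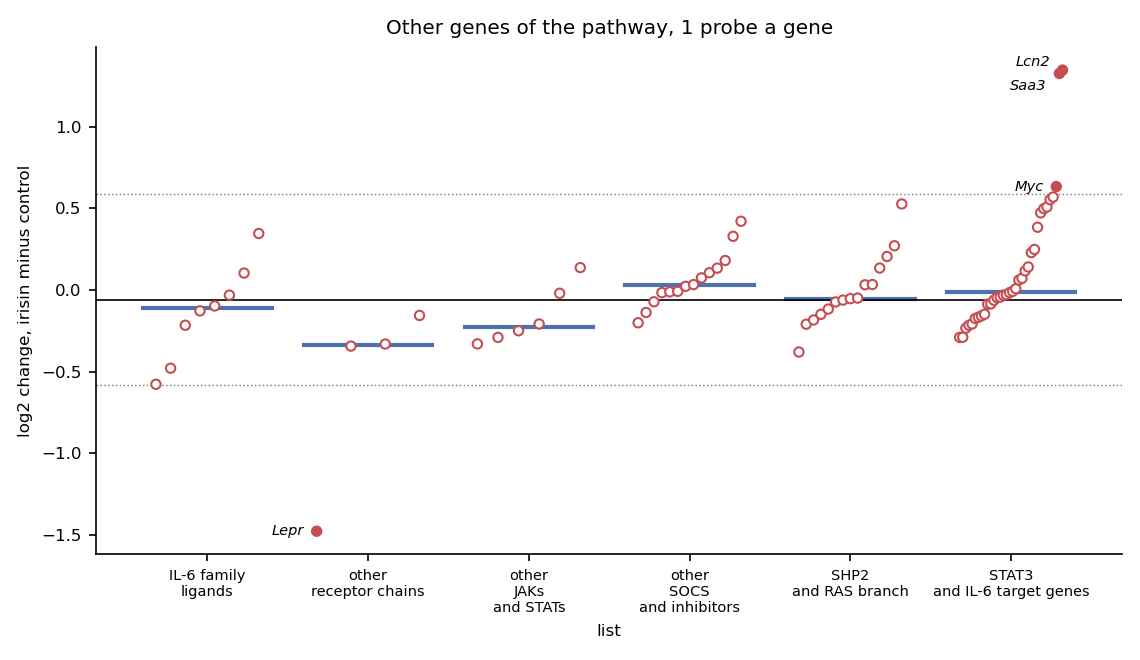
Log2 change (irisin minus control) of each tested gene in the 6 lists of other pathway genes, ordered within its list, with filled points for called genes, a blue bar for the median of each list, a black line for the median of all tested genes and dotted lines at 1.5-fold. Lcn2, Saa3 and Myc stand above the upper line in the list of target genes and Lepr stands below the lower line.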

How the data were processed

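RNA of 8 AML12 samples, 4 control and 4 treated with irisin, was measured on single-color Agilent arrays. The authors used Agilent Feature Extraction software (version 12 in the submitters' processing notes) to turn the scans into spot values. The authors deposited the scanner output and a value table as signal intensity, with background subtracted and no scaling between arrays, beside other columns that mark spots as outliers or as well above background. The value table is the average of the processed signal over the spots of a probe, within 0.000500%. Spots marked as outliers, up to 0.463% of the 43020 on an array, were left out, and no spot was saturated.

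Spots of a probe were averaged, and the log2 of the array's 75th percentile was subtracted from the log2 signal. Probes that all 4 arrays of either group gave as well above background were tested in R 4.3.3 by lmFit and eBayes of limma 3.58.1. Accessions were matched to the GRCm38.p6 gene table of RefSeq, which named 28663 probes (72.7%). The files use mm9, so no probe coordinates are given. Exact permutation tests used all 70 assignments of the arrays.

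The members and lists were chosen with earlier results of these data known. Named were all members, every called pathway gene, 20 pathway genes set by name, of which 1 is not reported here, and, for Stat3 and Socs3, the 3 most similar genes. The methods' test was ANOVA on each probe. Alternatives covered background, scaling, filter, marked spots, test, thresholds, replicate block and leaving out each array. Normexp with negative controls and the differences between probes of a gene were chosen after seeing the data. In simulated data with 200 of 24092 probes changed by 1 on the log2 scale, 88% were recovered and 3 unchanged probes were called. The simulated noise was independent for each probe, with no slide effect and no shift with signal, so these figures need not hold for the data. Files were read with pandas 2.3.3 in Python 3.11.15, and plots were drawn with matplotlib 3.10.9.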

Additional observations from a re-analysis of the deposited data

Results flagged for a closer look

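Within the groups of 4 arrays, 2 of 26 groups (2 for each of the 13 probes) held 1 array that stood apart from its group. Chance gives this in about 1 in 20 groups. For Osmr, irisin replicate 2 read -0.18 while the other irisin arrays read 0.24 to 0.31 (log2 relative to the 75th percentile). For Tyk2, control replicate 4 read -1.49 while the other control arrays read -1.04 to -0.95. Over the 13 probes neither array was mainly low or mainly high. Irisin replicate 2 was the lowest of its group for 4 probes and the highest for 5, and control replicate 4 was the lowest for 3 and the highest for 4. Irisin replicate 2 was still often at an extreme, as was irisin replicate 1 (4 and 6), while irisin replicate 4 was at neither for any probe. Leaving out irisin replicate 2 gave 3386 calls over all tested probes, the most of any array left out.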

How the results depend on the processing

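None of the 13 probes was called under any setting except no scaling (10 called higher), spike-in scaling (4 called higher) and the fit without irisin replicate 1, so leaving out 1 array gave 0 to 1 called lower. The count over all tested probes moved from 2987 to 0 with normexp, 1691 with quantile normalization, 1625 with cyclic loess, 8166 with spike-in scaling, 15082 with no scaling, 12934 with no filter, 5909 by adjusted p alone, 800 at 2-fold and 2784 to 3386 with 1 array left out. The higher share was 5.76%, against 39.6% with quantile normalization (670 higher, 1021 lower), 43.0% by cyclic loess (699 and 926), 95.6% when scaled to the spike-in probes (7804 and 362) and 98.9% unscaled (14920 and 162). Pathway genes called higher numbered 0 with normexp, 7 with quantile normalization, 8 with cyclic loess, 32 with spike-in scaling, 58 with no scaling and 3 to 5 with 1 array left out. Those called lower numbered 0 with normexp, 2 with negative controls in normexp, with scaling to the median and with the mean over probes, and 1 to 2 with 1 array left out. At the 1.5-fold threshold Lepr, Lcn2, Saa3 and Myc were called in 22 of 23 settings. The exception was normexp, where their changes were -0.23, 1.13, 0.99 and 0.56 (limma, adjusted p = 0.735, 0.0941, 0.0941 and 0.106). Myc is below 2-fold.

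Some changes turned sign. With normexp the Lifr probes gave 0.19 and 0.41, Jak2 -0.046, Stat3 -0.11 and 0.30, Socs1 0.17 and Socs3 -0.19. Its background estimate was -306 and -395 on irisin replicates 2 and 4 and -10.7 to -8.06 on the other 6 arrays. With negative controls it gave -0.048 for Il6ra, 0.013 for Il6st, -0.17 for a Lifr probe and -0.0046 for Osmr. Quantile normalization gave 0.067 for the dimmest Lifr probe, and cyclic loess gave 0.095 for it and 0.0049 for the brightest. Scaling to the median gave -0.0087 for Lifr, -0.012 for Jak2 and -0.010 for Stat3. Spike-in scaling gave 0.54 for Il6st, 0.55 and 0.37 for Lifr, 0.27 for Tyk2 and 0.46 for Socs1, and no scaling gave 0.71 for Il6st, 0.71 and 0.53 for Lifr, 0.43 for Tyk2, 0.16 for the dimmer Stat3 probe and 0.62 for Socs1. Apart from what scaling does by construction, the cause was not tested.

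With 1 array left out, Il6ra ran from -0.046 to 0.13, Il6st from -0.11 to 0.032, Lifr from -0.079 to 0.067 and from -0.057 to 0.094, Osmr from -0.0024 to 0.17, Jak2 from -0.061 to 0.10, the brighter Stat3 probe from -0.13 to 0.13 and Socs3 from -0.013 to 0.070. With no change of sign, the dimmest Lifr probe ran from -0.28 to -0.13, Jak1 from 0.092 to 0.23, Tyk2 from -0.44 to -0.24, the dimmer Stat3 probe from -0.77 to -0.41 and Socs1 from -0.23 to -0.030. Same-numbered arrays did not deviate together (r = 0.13, -0.38, -0.14 and 0.18), so the numbers are not taken to pair them. With the replicate block 0 of the 13 probes were called and the dimmer Stat3 probe had a change of -0.58 with an adjusted p of 0.0486 in limma. That fit called 3004 probes, and 3 pathway genes higher and 1 lower.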

Other observations

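Some genes of the pathway lists had an adjusted p under 0.05 in limma with a change under 1.5-fold, and these were picked after their values were seen. Socs6 and Socs5, which belong to the same family as Socs3, had changes of 0.42 (SE 0.095, adjusted p = 0.00757) and 0.33 (SE 0.095, adjusted p = 0.0270), and the other Socs6 probe gave 0.43. The ligand genes Il27 and Ctf2 had changes of -0.48 (adjusted p = 0.00196) and -0.58 (adjusted p = 0.00799), both with every irisin array below every control array. The same held for 23% of all tested probes. Ctf2 lay in the second dimmest decile, whose median change was -0.33. With quantile normalization Il27 and Ctf2 gave -0.46 and -0.26, with cyclic loess -0.42 and -0.23, and with spike-in scaling 0.097 and -0.0014. Among the acute phase genes, Saa1, another serum amyloid A gene, had 0.57 (adjusted p = 0.00749), Fga, which encodes the fibrinogen alpha chain, had 0.50 (adjusted p = 0.00381) with 0.07 on its other probe, and Hamp, which encodes the iron hormone hepcidin, had 0.38 (adjusted p = 0.0201). Fga and Hamp were called with quantile normalization (0.78 and 0.63) and with cyclic loess (0.80 and 0.65), and Saa1 with cyclic loess (0.60), but with normexp on negative controls Fga and Hamp turned to -0.26 and -0.25. Il1r1, the receptor for IL-1, had 0.51 (adjusted p = 0.00239). The part of these genes in any response of the pathway was not tested.

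The receptor gene Il12rb1, also picked after its values were seen, gave -0.33 on its brightest probe (SE 0.13; limma, adjusted p = 0.105) and -1.48 on its other probe. That other probe was not well above background on all 8 arrays. It was tested because all 4 arrays of 1 group passed, so its change includes signals near background. The difference between both probes was not tested.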
